A study of Homo sapiens with 16 samples.

Results

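CpG islands that lie away from annotated promoters and exons were followed by their histone H3 lysine 27 acetylation (H3K27ac) in 8 ChIP-seq libraries of THP-1, a human monocytic leukemia cell line. A region was a window of 1000 bp centred on a merged ATAC-seq peak, on the hg38 build. It was taken as a member when its detailed annotation named a CpG island and its basic annotation was intron or intergenic, and 5269 of 151654 regions met this rule, 3328 in introns and 1941 intergenic. The rule used annotation only and no measured H3K27ac value. WT THP-1 cells, transduced with Cas9 without a guide, and USP18-/- THP-1 cells, made by CRISPR-Cas9 and grown from sorted single cells, were each left untreated or treated with IFNα (1000 U/ml for 6 h), which gave 4 groups of 2 libraries: untreated WT, WT with IFN, untreated USP18-/- and USP18-/- with IFN. USP18 removes the ubiquitin-like protein ISG15 from its targets and restrains type I interferon signalling at its receptor. Loss of USP18 and the particular clone cannot be told apart here. The labels number the replicates without saying whether they were separate cultures, so the p-values below measure the spread between libraries.

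CpG islands are stretches of DNA that kept a high density of CG dinucleotides because they are mostly free of methylation in the germ line. Most start sites of human genes lie in one. Islands within genes or far from any annotated gene, often called orphan islands, can act as start sites of alternative or noncoding transcripts, as enhancers, or as targets of Polycomb repression, and their activity tends to differ between cell types. H3K27ac marks active promoters and active enhancers, so acetylation over such an island shows that it is in use in the cells studied.

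The central 200 bases of 8 islands are shown because they carried the largest change of each comparison, each read from the + strand of hg38 with every CG in capitals. They stand for a rise with IFN in WT cells (DDX60), a fall with IFN in WT cells (BIK), gain and loss of acetylation in USP18-/- cells (LINC00910 and CACNA2D1), a rise and a fall with IFN in USP18-/- cells (ARHGEF19 and AJAP1), and IFN responses that differed between the genotypes (LINC01336 and MIR183). Islands are named by the nearest gene and the distance in bp from its transcription start site (TSS), with + for downstream.
DDX60 +355, chr4:168318353-168318552: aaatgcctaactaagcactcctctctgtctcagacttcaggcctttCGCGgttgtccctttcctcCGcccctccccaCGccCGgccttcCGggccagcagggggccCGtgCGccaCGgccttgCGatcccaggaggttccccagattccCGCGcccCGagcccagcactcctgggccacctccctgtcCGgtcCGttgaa
BIK +483, chr22:43111132-43111331: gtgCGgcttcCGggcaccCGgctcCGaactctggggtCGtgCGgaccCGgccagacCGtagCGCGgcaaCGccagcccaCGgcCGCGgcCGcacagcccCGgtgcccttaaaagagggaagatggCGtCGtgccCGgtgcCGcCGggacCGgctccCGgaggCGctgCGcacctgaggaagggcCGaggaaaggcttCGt
LINC00910 +27791, chr17:43361008-43361207: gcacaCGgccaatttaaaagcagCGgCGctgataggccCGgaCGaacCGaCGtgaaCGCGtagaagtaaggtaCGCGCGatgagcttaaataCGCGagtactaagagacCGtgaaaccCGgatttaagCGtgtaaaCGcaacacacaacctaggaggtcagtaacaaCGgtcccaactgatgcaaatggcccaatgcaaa
CACNA2D1 +632, chr7:82443075-82443274: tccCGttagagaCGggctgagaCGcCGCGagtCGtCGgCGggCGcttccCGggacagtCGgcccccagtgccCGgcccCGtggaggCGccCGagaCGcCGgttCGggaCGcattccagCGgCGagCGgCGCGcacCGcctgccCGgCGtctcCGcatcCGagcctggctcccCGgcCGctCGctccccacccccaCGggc
ARHGEF19 -4852, chr1:16217424-16217623: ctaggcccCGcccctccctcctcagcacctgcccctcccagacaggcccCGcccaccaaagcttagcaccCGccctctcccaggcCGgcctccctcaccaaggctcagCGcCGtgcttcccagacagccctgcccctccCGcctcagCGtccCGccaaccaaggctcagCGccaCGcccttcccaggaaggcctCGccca
AJAP1 +1399, chr1:4656345-4656544: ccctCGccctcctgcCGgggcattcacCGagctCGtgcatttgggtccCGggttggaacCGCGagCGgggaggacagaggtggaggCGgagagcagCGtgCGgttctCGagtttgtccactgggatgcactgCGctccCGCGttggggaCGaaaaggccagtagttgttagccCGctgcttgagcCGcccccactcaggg
LINC01336 -1018, chr5:75053562-75053761: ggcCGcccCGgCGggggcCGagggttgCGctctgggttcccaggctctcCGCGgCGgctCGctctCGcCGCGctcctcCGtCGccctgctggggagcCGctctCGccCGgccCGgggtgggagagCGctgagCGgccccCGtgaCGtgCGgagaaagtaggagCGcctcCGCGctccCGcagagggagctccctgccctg
MIR183 -5338, chr7:129780253-129780452: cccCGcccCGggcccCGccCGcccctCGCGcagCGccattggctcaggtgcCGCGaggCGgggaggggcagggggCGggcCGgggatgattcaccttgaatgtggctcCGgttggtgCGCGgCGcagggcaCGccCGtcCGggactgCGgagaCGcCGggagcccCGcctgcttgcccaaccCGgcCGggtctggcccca
These 200 bases held between 12 CG dinucleotides at ARHGEF19 -4852 and 33 at CACNA2D1 +632. The LINC00910 island had the lowest GC content of the 8, at 51.5%, and the MIR183 island the highest, at 78.5%.

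The libraries held between 9046141 and 12935453.5 tags in the 151654 regions. Of these tags, 6.42% to 6.83% lay in members in the 4 WT libraries and 7.63% to 7.85% in the 4 USP18-/- libraries. Levels are given as CPM, counts relative to the total of tags in regions of a library, scaled by trimmed means (TMM). They are relative to the other regions of the same library, and a higher level per cell and a larger share of acetylated cells cannot be told apart. Of 10 myeloid marker genes, 9 had a window at their TSS and 7 of these were at 5 CPM or more in all 8 libraries, with a summed level of 277 to 385 CPM. Of 8 markers of other lineages only NEUROD1 had a window, at 0.290 to 1.09 CPM.

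Many of the islands lay close to a promoter. Of the 5269 members, 2885 (54.8%) lay within 3000 bp of a RefSeq TSS, just outside the promoter annotation, which ran from 1000 bases upstream to 100 downstream, and 69.3% lay downstream of the nearest TSS. The median distance was 1822 bp, against 28841 bp for intronic and intergenic regions outside CpG islands and repeats, called plain regions below. A transcript start of GENCODE version 44 lay inside the window of 2968 members (56.3%), compared with 7.21% of plain regions and 92.0% of promoter-TSS regions. Even among members more than 3000 bp from a RefSeq TSS the share was 37.8%. Windows less than 1000 bp apart share tags: the 5269 members formed 4473 separate stretches, and 3603 of them overlapped at least 1 other window of any kind.

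In base composition the members were like promoters. Their median GC content was 64.6%, their median number of CG dinucleotides 75 per window and their median ratio of observed to expected CpG 0.755. Promoter-TSS regions had 61.9%, 71 and 0.760, and plain regions 44.9%, 11 and 0.215. CpG islands are annotated by their base composition, so the contrast with plain regions follows from the rule. The ATAC peak had been called in all 8 ATAC-seq libraries at 61.1% of members, 77.3% of promoter-TSS regions and 45.8% of plain regions. Chromosome 19, the most gene-dense human chromosome, held 8.05% of members and 3.68% of all regions. Sequence present elsewhere in the genome was rare in them: 3674 members (69.7%) had no stretch of 32 bases that recurred in hg38, and 134 (2.54%) had recurring bases over more than 50% of the window.

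Short sequence motifs were counted in the central 200 bases on both strands, as descriptions of sequence only. The GC box GGGGCGG, bound by SP and KLF factors, was present in 39.6% of members, 41.8% of promoter-TSS regions and 9.16% of all regions. A CTCF core (AGGGGGCGC), part of the sequence read by this insulator protein, was found in 5.41% of members, against 2.56% of promoter-TSS regions and 1.20% of all. ETS (CCGGAAG) and NRF1 (GCGCNTGCG) letters were in 6.05% and 5.07% of members, against 12.4% and 9.71% of promoter-TSS regions. Letters common at enhancers of myeloid cells were scarce, as they were in promoter-TSS regions. AP-1 (TGANTCA) was in 3.17% of members, 4.09% of promoter-TSS regions and 12.9% of all regions. In the same order, PU.1 (GAGGAAGT) was in 1.97%, 2.84% and 6.41%, and the interferon response letters GAAANNGAA in 2.56%, 4.11% and 9.72%. NF-kB letters (GGANTTTCC) were in 0.778%, 0.985% and 0.860%, and the CRE (TGACGTCA) in 1.16%, 2.53% and 0.526%. The GC box and the CTCF core share the letters GGGGCG but differ in the next base, so a CTCF match is not by itself a GC box match.

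Acetylation over the islands was between that of promoters and that of other distal regions. Of the 5269 members, 4725 passed the filter of at least 10 counts in at least 2 libraries. The other 544 never exceeded 19 counts in any library, 5 of them had no count, and 58.3% of them lay over 3000 bp from a TSS. The median level per library of the tested members was 5.46 to 5.81 CPM in WT cells and 6.29 to 6.74 CPM in USP18-/- cells. Plain regions were at 1.86 to 1.94 CPM in WT and 1.55 to 1.67 CPM in USP18-/- cells, and promoter-TSS regions at 10.1 to 10.6 and 12.9 to 13.5 CPM. The groups of libraries of the 2 genotypes did not overlap for any of these 3 classes, and the members and promoters were higher in USP18-/- cells while the plain regions were lower.

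**Figure D1:**
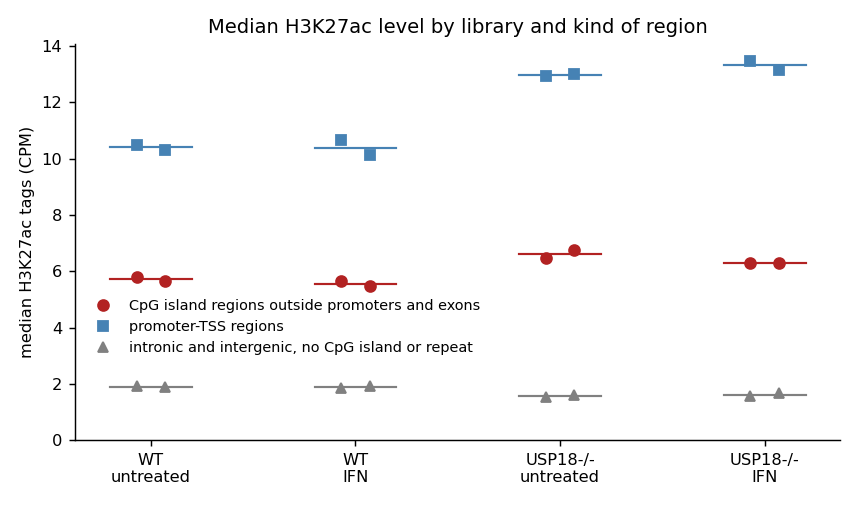
Median H3K27ac level of tested CpG island members, plain regions and promoter-TSS regions in each of the 8 libraries, in CPM on a linear axis, with 1 point per library and a line at the mean of the 2 libraries. Members were at 5.46 to 5.81 CPM in WT and 6.29 to 6.74 CPM in USP18-/- libraries, between plain regions and promoter-TSS regions.

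The level fell with distance from the nearest TSS. Over all 8 libraries the median member was at 13.4 CPM up to 1000 bp, 5.67 CPM from 1000 to 3000 bp, 3.11 CPM from 3000 to 10000 bp, 2.92 CPM from 10000 to 50000 bp and 2.55 CPM beyond 50000 bp. The share of windows with a GENCODE transcript start fell from 82.6% in the nearest bin to 36.8% in the farthest. Across the tested members the level followed the CpG ratio and distance more than GC content. The Spearman correlation was 0.23 with the CpG ratio, -0.29 with the absolute distance and 0.016 with GC content. With the number of CG dinucleotides per window it was 0.15. These values are over windows of the same libraries, of which many overlap.

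The 5 most acetylated islands, 1 per stretch, were not the ones that changed most. The highest lay 4616 bp from FOXD4, a forkhead gene near the end of chromosome 9 (chr9:113301-114301), with 126 and 129 CPM in the 2 untreated WT libraries, 143 and 122 in WT with IFN, 253 and 254 in untreated USP18-/- cells and 254 and 244 in USP18-/- cells with IFN. The level of this island was higher in all 4 USP18-/- libraries than in any WT library, with a log2 fold change of 0.99 ± 0.07 (SE) untreated, just below the threshold. Of its window, 39.5% recurs elsewhere in hg38, so that tags of FOXD4-like copies cannot be assigned with certainty. The next was in intron 1 of RLF, a zinc finger gene, with 151 and 150 CPM in the 2 untreated WT libraries, 143 and 138 in WT with IFN, 182 and 178 in untreated USP18-/- cells and 276 and 250 in USP18-/- cells with IFN. SCMH1, which encodes a Polycomb group protein, had 159 and 145 CPM in the 2 untreated WT libraries, 148 and 128 in WT with IFN, 211 and 253 in untreated USP18-/- cells and 189 and 199 in USP18-/- cells with IFN. CTPS1, which makes CTP, was the steadiest of the 5, with 178 and 162 CPM in the 2 untreated WT libraries, 189 and 173 in WT with IFN, 176 and 183 in untreated USP18-/- cells and 174 and 170 in USP18-/- cells with IFN. DENND4B, a regulator of RAB GTPases, had 163 and 140 CPM in the 2 untreated WT libraries, 171 and 149 in WT with IFN, 176 and 159 in untreated USP18-/- cells and 236 and 196 in USP18-/- cells with IFN. All of these except FOXD4 lay in the first intron within 655 bp of the TSS, and none of these 5 windows passed the threshold in any of the 5 comparisons. An overlapping window of the FOXD4 island, at +4150, was called higher in untreated USP18-/- cells, by 1.02 ± 0.08 (adjusted p = 1.3e-19). Under IFN it was at 0.92 ± 0.08, below the threshold.

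Each comparison was tested with edgeR's quasi-likelihood test over 123276 regions. A region was called when the fitted fold change was above 2 and the p-value adjusted by Benjamini-Hochberg was under 0.05; all adjusted p-values below are from this test. Of the comparisons, 4 were between groups: IFN in WT cells, IFN in USP18-/- cells, and USP18 loss in untreated and in IFN-treated cells. The last was the difference of the IFN effects between the genotypes. The comparisons share libraries, except that the 2 IFN comparisons share none with each other and the 2 genotype comparisons share none with each other.

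IFN changed few of the islands in WT cells. Of 4725 tested members 7 rose and 2 fell, which was 0.148% and 0.0423%, against 0.342% of all tested regions called higher and 0.0389% called lower. The median log2 fold change of the members was -0.01. At an unadjusted p under 0.05 there were 147 members with positive and 183 with negative fold changes, and DESeq2 called 6 higher and 0 lower. The 7 that rose lay near DDX60, PARP14, B4GALNT4, FBXO6, HES4 and, with 2 overlapping windows, DGCR6L. The rule for named members gave DDX60, DGCR6L, PARP14 and BIK, and the others were added because their number was small, after their values were seen.

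DDX60 encodes an RNA helicase of the antiviral response. Its island in intron 1 (chr4:168317952-168318952) had 5.71 and 5.46 CPM in the 2 untreated WT libraries, 22.6 and 26.3 in WT with IFN, 10.7 and 11.4 in untreated USP18-/- cells and 54 and 49 in USP18-/- cells with IFN. Both genotypes rose with IFN without overlap, by 2.13 ± 0.16 on the log2 scale (SE, n = 2 and 2) in WT (adjusted p = 8.86e-19) and by 2.22 ± 0.13 in USP18-/- cells (adjusted p = 6.58e-27). The difference of the 2 effects was 0.10 ± 0.22 (adjusted p = 0.87), so a larger IFN effect in USP18-/- cells was not detected here. The levels were also higher in USP18-/- than in WT cells, untreated by 0.98 ± 0.18, below the threshold, and under IFN by 1.08 ± 0.12, a call that was lost without WT IFN replicate 1 (0.97) or USP18-/- IFN replicate 1 (0.96).

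PARP14, an ADP-ribosyltransferase induced by interferon, had an island in intron 1 (chr3:122680704-122681704) with 7.03 and 8.68 CPM in the 2 untreated WT libraries, 24.7 and 23.5 in WT with IFN, 7.92 and 10.8 in untreated USP18-/- cells and 59.9 and 69.5 in USP18-/- cells with IFN. The log2 change with IFN was 1.61 ± 0.15 in WT (adjusted p = 8.15e-14) and 2.79 ± 0.13 in USP18-/- cells (adjusted p = 1.18e-32). Here the effects did differ, by 1.18 ± 0.21 (adjusted p = 9.93e-06), or 0.93 without USP18-/- untreated replicate 1, which is below the fold threshold. Both the DDX60 and the PARP14 window overlap the promoter window of the same gene and share tags with it.

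B4GALNT4, a glycosyltransferase gene, had an intergenic island 13514 bp upstream (chr11:355781-356781) with 6.42 and 7.52 CPM in the 2 untreated WT libraries, 20.9 and 20 in WT with IFN, 6.63 and 5.7 in untreated USP18-/- cells and 39.8 and 43.8 in USP18-/- cells with IFN. It rose by 1.55 ± 0.16 in WT and by 2.75 ± 0.15 in USP18-/- cells, and the effects differed by 1.21 (adjusted p = 3.5e-05). This window is on chromosome 11 close to the IFITM genes, but its nearest TSS is that of B4GALNT4.
FBXO6, a ubiquitin ligase subunit, had an island in an intron (chr1:11664154-11665154) with 3.97 and 4.48 CPM in the 2 untreated WT libraries, 10.3 and 7.79 in WT with IFN, 4.22 and 4.75 in untreated USP18-/- cells and 22.3 and 22.5 in USP18-/- cells with IFN. The rise was 1.09 ± 0.21 in WT and 2.32 ± 0.18 in USP18-/- cells, with a difference of 1.23 (adjusted p = 0.00106). It was the only one of the 7 with the letters GAAANNGAA in its central 200 bases.

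The DGCR6L island, 20992 bp downstream of the TSS on chromosome 22 (chr22:20298613-20299613), had 3.46 and 3.31 CPM in the 2 untreated WT libraries, 10.4 and 11.4 in WT with IFN, 2.24 and 1.61 in untreated USP18-/- cells and 9.88 and 8.51 in USP18-/- cells with IFN. It rose in both genotypes, by 1.68 ± 0.22 in WT and 2.24 ± 0.25 in USP18-/- cells, although its level in USP18-/- cells was no higher than in WT cells. HES4, a transcriptional repressor gene next to ISG15 on chromosome 1, had an island 1803 bp upstream with 1.32 and 0.985 CPM in the 2 untreated WT libraries, 3.03 and 3.03 in WT with IFN, 2.75 and 2.56 in untreated USP18-/- cells and 9.09 and 7.03 in USP18-/- cells with IFN, at low counts.

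The 2 that fell in WT cells were at low levels. BIK, which encodes a proapoptotic BH3-only protein, had an island in intron 1 (chr22:43110731-43111731) with 4.38 and 3.58 CPM in the 2 untreated WT libraries, 1.56 and 1.82 in WT with IFN, 4.22 and 3.32 in untreated USP18-/- cells and 0.962 and 1.85 in USP18-/- cells with IFN. The log2 change was -1.22 ± 0.32 in WT (adjusted p = 0.0371) and -1.43 ± 0.33 in USP18-/- cells (adjusted p = 0.000288), and the groups did not overlap in either genotype. The call in WT cells was lost when any 1 of the 4 WT libraries was left out, with adjusted p from 0.117 to 0.452. PDLIM7, named after its values were seen, had 2.55 and 2.06 CPM in the 2 untreated WT libraries, 0.586 and 0.809 in WT with IFN, 1.2 and 3.04 in untreated USP18-/- cells and 2.1 and 2.78 in USP18-/- cells with IFN. It fell with IFN in WT cells and was not called in USP18-/- cells.

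In USP18-/- cells IFN changed more islands: 140 rose (2.96%, against 7.12% of all tested regions) and 69 fell (1.46%, against 4.3%). Both shares were below the background, and the median log2 fold change was 0.01. Promoter-TSS regions were near the members, with 3.72% called higher and 1.51% lower, so the low shares were not particular to the islands. Scaling by the sum of counts gave 104 higher and 156 lower, with a median of -0.12 while the median of all regions moved by -0.13, so the balance between rises and falls depends on the scaling. The number that fell was 109 without USP18-/- untreated replicate 1 and 116 without USP18-/- IFN replicate 2. All 7 islands that rose in WT cells were among the 140, and they were 5.00% of the 140. The 140 had a median log2 change of 1.35 in USP18-/- cells, on which they were chosen, and of 0.28 in WT cells.

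**Figure D2:**
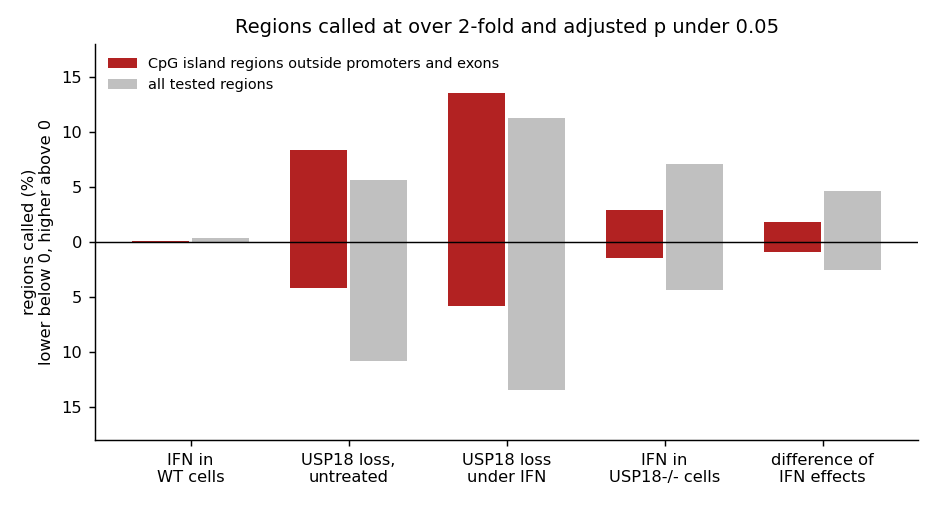
Percentage of tested CpG island members called higher and lower in each of the 5 comparisons, beside the percentage among all tested regions. With IFN in USP18-/- cells the members called higher (2.96%) were below the 7.12% of all regions, and with USP18 loss the members called lower (4.19% untreated) were below the 10.8% of all regions. Promoter-TSS regions, which are not drawn, were at 3.72% and 3.22% in the same 2 cases.

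The largest rise was at an intergenic island 4852 bp upstream of ARHGEF19, a guanine nucleotide exchange factor gene (chr1:16217023-16218023), with 1.12 and 1.16 CPM in the 2 untreated WT libraries, 2.05 and 3.14 in WT with IFN, 1.03 and 1.52 in untreated USP18-/- cells and 12 and 8.88 in USP18-/- cells with IFN. This was 3.03 ± 0.28 on the log2 scale in USP18-/- cells (adjusted p = 4.84e-16). In WT cells the values also did not overlap, but the change of 1.17 ± 0.37 was not called (adjusted p = 0.153). IL15RA, the alpha chain of the interleukin-15 receptor, had an island in intron 1 (chr10:5976552-5977552) with 3.57 and 2.69 CPM in the 2 untreated WT libraries, 4.59 and 6.57 in WT with IFN, 3.01 and 2.18 in untreated USP18-/- cells and 18.4 and 18.3 in USP18-/- cells with IFN. It rose by 2.81 ± 0.21 in USP18-/- cells (adjusted p = 2.42e-20), against 0.84 ± 0.25 in WT (adjusted p = 0.106).

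Among the falls in USP18-/- cells, AJAP1, an adherens junction gene, had an island in intron 1 (chr1:4655944-4656944) with 1.22 and 0.985 CPM in the 2 untreated WT libraries, 0.586 and 0.708 in WT with IFN, 8.43 and 9.78 in untreated USP18-/- cells and 2.62 and 2.68 in USP18-/- cells with IFN. The level was highest in untreated USP18-/- cells, and the change with IFN was -1.77 ± 0.24 (adjusted p = 3.22e-09). BRI3BP, which encodes a membrane protein of the BRI3-binding family, had 51.5 and 47.7 CPM in the 2 untreated WT libraries, 44.2 and 41.7 in WT with IFN, 40.1 and 38.2 in untreated USP18-/- cells and 12.2 and 11.3 in USP18-/- cells with IFN. It fell by 1.73 ± 0.12 on the log2 scale in USP18-/- cells (adjusted p = 1.06e-21) and changed by -0.21 ± 0.11 in WT. TP73, a p53 family gene, had an island in intron 2 with 7.23 and 6.89 CPM in the 2 untreated WT libraries, 5.18 and 3.03 in WT with IFN, 10.4 and 10.3 in untreated USP18-/- cells and 2.97 and 3.42 in USP18-/- cells with IFN, a change of -1.70 ± 0.22 in USP18-/- cells. In WT cells the TP73 values were lower with IFN as well, without overlap, but the change of -0.77 ± 0.23 was not called.

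The IFN effect itself differed between the genotypes at 87 members with a higher effect in USP18-/- cells (1.84%, against 4.66% of all tested regions) and 40 with a lower one (0.847%, against 2.51%). Of promoter-TSS regions 2.62% had a higher and 1.02% a lower effect, also below all tested regions. The 87 had a median log2 change with IFN of 0.07 in WT and 1.46 in USP18-/- cells, and the 40 had 0.24 and -0.99. These medians come from the libraries that chose the members. With the sum of counts the numbers were 52 and 69, so the direction of this split also depends on the scaling, and without WT IFN replicate 1 the 40 became 24. Of the 87, 16 (18.4%) had the letters GAAANNGAA in the central 200 bases, as did 16 of the 140 (11.4%) that rose with IFN in USP18-/- cells. Over all members the share with them was 2.56%. None of the 40 and none of the 69 that fell had these letters, and 18 of the 40 were among the 69. At a share of 2.56% few matches are to be expected in sets of this size, so no depletion can be read from these counts.

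LINC01336 had the largest difference, at an intergenic island 1018 bp upstream of this noncoding RNA gene (chr5:75053161-75054161), with 1.32 and 0.716 CPM in the 2 untreated WT libraries, 1.37 and 0.809 in WT with IFN, 1.29 and 2.28 in untreated USP18-/- cells and 10.7 and 13.4 in USP18-/- cells with IFN. The other 6 libraries were at most at 2.28 CPM, well below the 2 USP18-/- libraries with IFN. The IFN effects differed by 2.64 ± 0.56 (adjusted p = 0.000237), a call lost without WT untreated replicate 1 (2.16). ZFPM2, which encodes a cofactor of GATA factors, had an island with 2.04 and 1.88 CPM in the 2 untreated WT libraries, 1.37 and 1.21 in WT with IFN, 1.38 and 1.42 in untreated USP18-/- cells and 5.77 and 3.33 in USP18-/- cells with IFN, and the effects differed by 2.29 ± 0.51 (adjusted p = 0.000465). KCNK9, an imprinted potassium channel gene, had an island 2880 bp upstream with 0.509 and 0.985 CPM in the 2 untreated WT libraries, 0.684 and 0.91 in WT with IFN, 1.29 and 0.949 in untreated USP18-/- cells and 5.51 and 4.44 in USP18-/- cells with IFN. Its difference of 2.07 ± 0.64 (adjusted p = 0.0193) rests on few counts and was lost without WT untreated replicate 2, WT IFN replicate 1, USP18-/- untreated replicate 2 or USP18-/- IFN replicate 1, with values of 1.50 to 1.88.

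In the other direction, the island 5338 bp upstream of MIR183, the start of a microRNA cluster known from sensory cells (chr7:129779852-129780852), had 1.22 and 0.716 CPM in the 2 untreated WT libraries, 1.66 and 1.92 in WT with IFN, 4.91 and 3.89 in untreated USP18-/- cells and 2.54 and 1.02 in USP18-/- cells with IFN. It was higher in untreated USP18-/- than in untreated WT cells by 2.19 ± 0.36 and equal under IFN (0.00 ± 0.37), and the IFN effects differed by -2.19 ± 0.54 (adjusted p = 0.00174). RGS12, a regulator of G protein signalling, had 4.18 and 3.31 CPM in the 2 untreated WT libraries, 4.1 and 4.65 in WT with IFN, 3.18 and 3.04 in untreated USP18-/- cells and 1.49 and 0.648 in USP18-/- cells with IFN, with a difference of -1.75 ± 0.45 (adjusted p = 0.003), a call lost without USP18-/- IFN replicate 2 (-1.32). CLGN, a chaperone gene of the testis, had 4.48 and 3.76 CPM in the 2 untreated WT libraries, 6.15 and 3.64 in WT with IFN, 10.1 and 9.11 in untreated USP18-/- cells and 3.41 and 4.26 in USP18-/- cells with IFN. It was high in untreated USP18-/- cells and near the WT level with IFN, with a difference of -1.58 ± 0.34 (adjusted p = 0.000243), lost without WT IFN replicate 1 (-1.15).

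**Figure D3:**
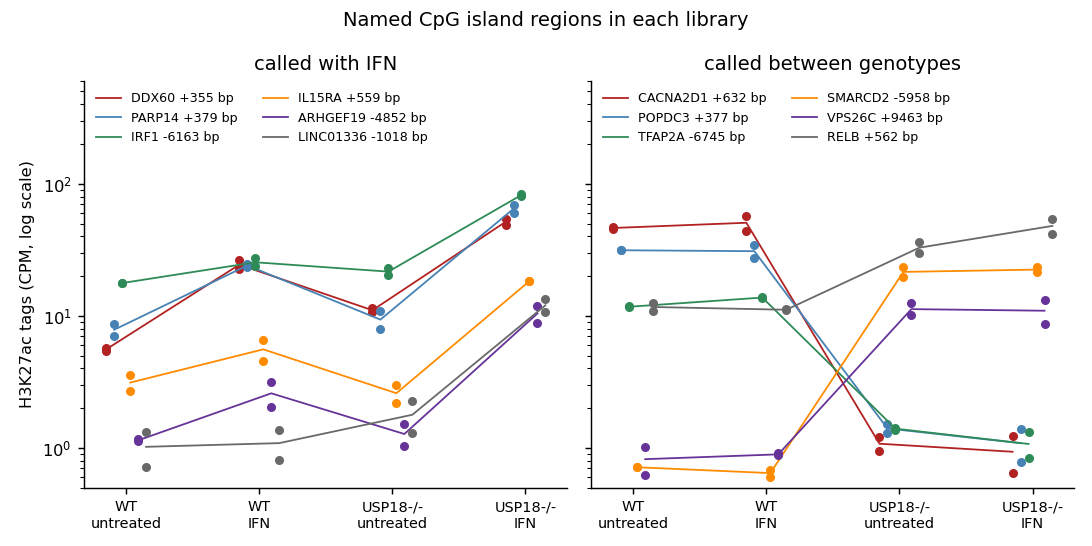
H3K27ac level (CPM, log axis) of named CpG island members in each of the 8 libraries, 1 point per library and a line through the group means, by genotype and treatment. LINC01336 -1018 was at 10.7 and 13.4 CPM in USP18-/- cells with IFN and at most at 2.28 CPM in the other 6 libraries, and CACNA2D1 +632 was at 44.3 to 57.1 CPM in WT and at most 1.22 CPM in USP18-/- libraries.

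More islands differed between the genotypes than with IFN. In untreated cells 395 of the 4725 tested members were higher in USP18-/- cells (8.36%, against 5.67% of all tested regions) and 198 lower (4.19%, against 10.8%), with a median log2 fold change of 0.32. Under IFN 641 were higher (13.6%, against 11.3%) and 272 lower (5.76%, against 13.4%), with a median of 0.35. The fold change was positive for 70.3% of the members untreated and for 68.3% under IFN. Plain regions had a median of -0.10 in both comparisons and promoter-TSS regions 0.34 and 0.40, so the members moved with the promoters. The 2 genotype comparisons share no library but the same 2 cell lines: 237 members were higher in both, which was 60% of the untreated and 37.0% of the IFN calls, 134 were lower in both (67.7% and 49.3%), and 0 were called in opposite directions.

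**Figure D4:**
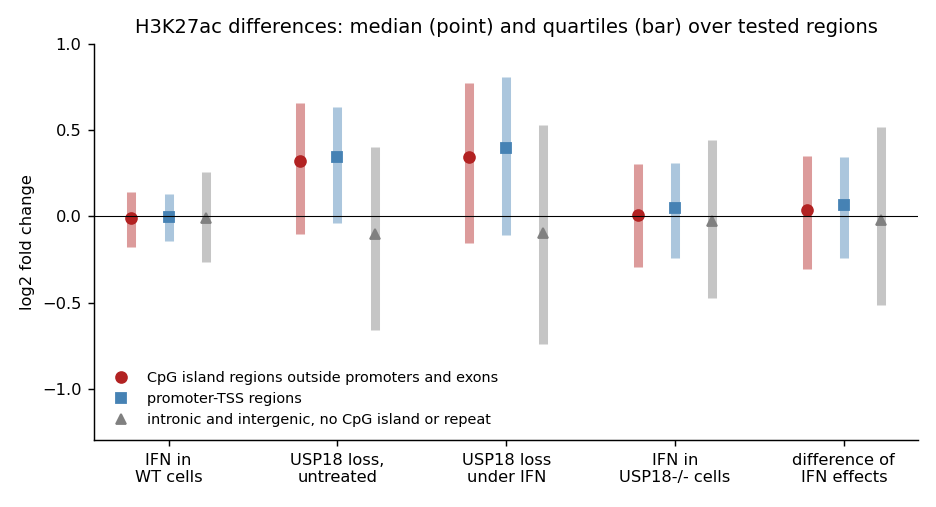
Median (point) and quartiles (bar) of the fitted log2 fold changes of CpG island members, plain regions and promoter-TSS regions in the 5 comparisons. With USP18 loss the members had medians of 0.32 (untreated) and 0.35 (under IFN), close to promoter-TSS regions (0.34 and 0.40) and above plain regions (-0.10 in both).

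GC content moved with this result. When offsets by GC share were added to the fit, the members' median fell to 0.04 untreated and 0.09 under IFN, and the calls turned to 183 higher and 340 lower untreated and to 365 higher and 410 lower under IFN. Scaling by the sum of counts gave 275 and 278 untreated and 327 and 423 under IFN, while the median of all regions moved by -0.14 and -0.27. The direction of the split between higher and lower calls thus depends on the scaling. A single factor per library shifts all regions alike, so the members' median had to stay 0.34 above that of all regions under these scalings. With loess offsets against mean abundance it was 0.20 above it untreated and 0.22 under IFN. With the GC offsets it was 0.02 above it untreated and 0.06 under IFN.

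Regions of like GC content were set side by side without offsets. At 60 to 65% GC the untreated median log2 fold change was 0.32 for members, 0.27 for plain regions and 0.39 for promoter-TSS regions. At 65 to 70% it was 0.34, 0.50 and 0.38, and at 55 to 60% it was 0.26, 0.12 and 0.35. Under IFN the members and plain regions were at 0.37 and 0.14 at 60 to 65%, and at 0.34 and 0.40 at 65 to 70%. The members were above plain regions in 5 of the 6 GC bins in both genotype comparisons, the exception being 65 to 70%. The bin under 50% held 54 members, and that of 70% and over 37 plain regions. Levels were not matched, with medians of 5.46 to 7.14 CPM for members and 1.43 to 1.85 CPM for plain regions over the bins. Untreated, regions at 1 to 3 CPM had a median log2 fold change of 0.17 for members and -0.20 for plain regions. At 30 to 100 CPM it was 0.44 and 0.24. The part of GC content, of level or of the library preparation in the difference was not tested.

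**Figure D5:**
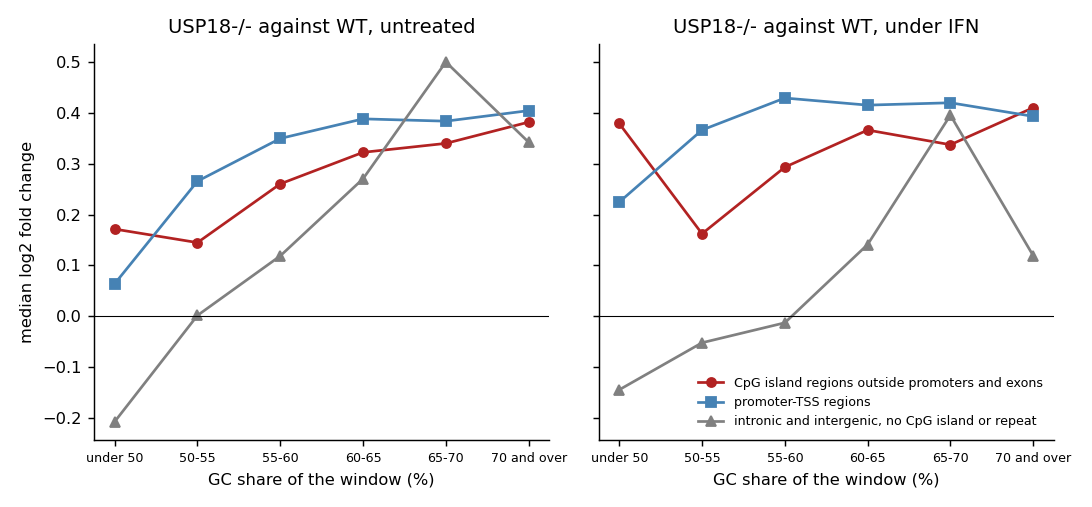
Median log2 fold change between USP18-/- and WT cells by GC content of the window, for CpG island members, plain regions and promoter-TSS regions. In untreated cells at 65 to 70% GC plain regions (0.50) were above members (0.34), and at 55 to 60% members (0.26) were above plain regions (0.12).

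The same direction was seen on every chromosome and at most distances. The members' median was above that of plain regions on 23 of 23 chromosomes in both genotype comparisons, by 0.17 to 0.63 untreated and by 0.14 to 0.67 under IFN. Within 3000 bp of a TSS 209 members were higher and 82 lower untreated, and beyond 3000 bp 186 and 116, with medians of 0.35 and 0.28. Beyond 50000 bp the numbers were 21 and 25 and the median 0.13. Intronic members had 240 higher and 104 lower, and intergenic ones 155 and 94.

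The share of tags gave a comparison over libraries. Of all tags in intronic and intergenic regions, members held 10.6% and 10.3% in untreated WT cells, 11.0% and 10.1% in WT cells with IFN, 13.2% and 13.7% in untreated USP18-/- cells and 13.6% and 13.6% in USP18-/- cells with IFN. All 4 USP18-/- libraries were above all 4 WT libraries. The log2 ratio of member tags to the other intronic and intergenic tags was higher by 0.42 in USP18-/- libraries (-2.67 ± 0.028, SD, n = 4, against -3.09 ± 0.059, n = 4; 2-sided exact permutation test, p = 0.0286, the smallest that 70 arrangements can give). Between IFN-treated and untreated libraries it differed by 0.012, that is by 0.0052 in WT and by 0.020 in USP18-/- cells. With labels permuted over all 8 libraries, whose spread includes the genotype difference, the exact permutation p was 0.914, and within the genotypes it was 0.833 over 36 arrangements. The genotype labels were likewise permuted over all 8 libraries without keeping the 2 treatments apart, and the genotype difference was not tested within treatments.

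The largest gains with USP18 loss went from near background to clear acetylation. The island 27791 bp downstream of the LINC00910 TSS (chr17:43360607-43361607) had 0.306 and 0.0895 CPM in the 2 untreated WT libraries, 0 and 0 in WT with IFN, 17.4 and 14.4 in untreated USP18-/- cells and 22.4 and 16.4 in USP18-/- cells with IFN. In untreated cells the WT libraries held 3 and 1 counts, and the ratio of the summed, scaled counts was 83.8 (exact 95% interval 32.5 to 309, counting error only; adjusted p = 1.66e-26, edgeR). Under IFN both WT libraries had no count, so USP18-/- cells were at least 65.0-fold higher, taking 3 counts per library as the floor. SMARCD2, a SWI/SNF chromatin remodelling subunit needed to form granulocytes, had an island 5958 bp upstream (chr17:63848449-63849449) with 0.713 and 0.716 CPM in the 2 untreated WT libraries, 0.684 and 0.607 in WT with IFN, 19.7 and 23.3 in untreated USP18-/- cells and 21.5 and 23.3 in USP18-/- cells with IFN. It was higher by 4.89 ± 0.26 untreated and 5.09 ± 0.26 under IFN, and 19.2% of its window recurs elsewhere in hg38. An overlapping window at -6267 gave 4.79 ± 0.26 and 5.63 ± 0.29, with 0.412% recurring.

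VPS26C, a subunit of the retriever complex of endosomes, had an island in intron 1 (chr21:37257569-37258569) with 1.02 and 0.627 CPM in the 2 untreated WT libraries, 0.879 and 0.91 in WT with IFN, 10.1 and 12.4 in untreated USP18-/- cells and 8.75 and 13.1 in USP18-/- cells with IFN. This was a gain of 3.77 ± 0.30 untreated and 3.59 ± 0.30 under IFN. The island 20742 bp upstream of MTM1, the myotubularin gene on the X chromosome (chrX:150547355-150548355), had 0.713 and 0.537 CPM in the 2 untreated WT libraries, 0.195 and 0.202 in WT with IFN, 3.27 and 4.18 in untreated USP18-/- cells and 7.35 and 4.07 in USP18-/- cells with IFN, a gain of 2.56 ± 0.40 untreated. Under IFN, where the WT libraries held 2 counts each, the ratio was 29.0 (exact 95% interval 11.0 to 108). All of these islands lay at least 5958 bp from the TSS of the named gene, and no WT library was above 1.07 CPM at any of them. The promoter windows of SMARCD2, VPS26C and MTM1 differed by 0.40 ± 0.11, 0.71 ± 0.10 and 0.28 ± 0.14 untreated on the same scale. IFN changed none of the 4 islands in either genotype past the threshold.

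The largest losses were as complete. CACNA2D1, a subunit of voltage-gated calcium channels, had an island in intron 1 (chr7:82442674-82443674) with 46.8 and 45.8 CPM in the 2 untreated WT libraries, 57.1 and 44.3 in WT with IFN, 1.2 and 0.949 in untreated USP18-/- cells and 1.22 and 0.648 in USP18-/- cells with IFN. The log2 difference was -5.40 ± 0.20 untreated (adjusted p = 9.16e-39) and -5.73 ± 0.21 under IFN (adjusted p = 1.38e-40). POPDC3, a gene of the Popeye family of muscle proteins, had 31.4 and 31.4 CPM in the 2 untreated WT libraries, 34.2 and 27.6 in WT with IFN, 1.29 and 1.52 in untreated USP18-/- cells and 0.787 and 1.39 in USP18-/- cells with IFN, or -4.48 ± 0.21 and -4.83 ± 0.22. Both windows overlap the promoter window of the gene.

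TFAP2A, the gene of transcription factor AP-2 alpha, had an island 6745 bp upstream (chr6:10425809-10426809) with 11.8 and 11.6 CPM in the 2 untreated WT libraries, 13.7 and 13.9 in WT with IFN, 1.38 and 1.42 in untreated USP18-/- cells and 1.31 and 0.833 in USP18-/- cells with IFN. It was lower by 3.06 ± 0.25 on the log2 scale untreated and by 3.66 ± 0.26 under IFN, and the promoter window of the gene differed by -0.29 ± 0.12 untreated. MGC12916, a noncoding RNA gene, had an island in intron 1 with 2.24 and 4.48 CPM in the 2 untreated WT libraries, 3.03 and 3.44 in WT with IFN, 0.344 and 0.0949 in untreated USP18-/- cells and 0.525 and 0.74 in USP18-/- cells with IFN, and was called lower untreated, where the USP18-/- libraries held 4 and 1 counts and WT cells were 15.2 times higher (exact 95% interval 6.22 to 48.2). On chromosome 6, which holds POPDC3, TFAP2A and RREB1, 5 of 253 tested members were higher (1.98%) and 21 lower (8.30%) in untreated cells. Chromosome 14 had 17 of 134 higher (12.7%) and 2 lower (1.49%). Of all tested members 8.36% were higher and 4.19% lower.

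Some genes had many islands. BCOR, a corepressor gene on the X chromosome whose protein works in a Polycomb complex, had the most, with 19 members in 12 stretches. Their levels ranged from 0.945 to 42.9 CPM in untreated WT cells and summed, with shared tags counted for each window, to 441 and 431 CPM in untreated WT, 467 and 404 in WT with IFN, 604 and 648 in untreated USP18-/- and 533 and 556 in USP18-/- cells with IFN. The sums were higher in all 4 USP18-/- libraries, yet none of the 19 passed the fold threshold in any comparison. Untreated, their log2 fold changes ran from -0.19 to 0.73 around a median of 0.55.

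RREB1, a RAS-responsive zinc finger gene, had 6 members that went in different directions. The 4 overlapping windows about 55 kb upstream on chromosome 6 were lower in USP18-/- cells, by 1.05 ± 0.12 to 1.55 ± 0.15 on the log2 scale untreated and by 1.43 ± 0.13 to 2.29 ± 0.17 under IFN. The 2 in the gene were at 0.23 ± 0.11 and 0.66 ± 0.10 untreated and were not called. Upstream of FCGR2A, an Fc receptor gene of myeloid cells, 2 overlapping windows 64956 and 64666 bp away had 14.1 to 17.8 CPM in untreated WT and 34.2 to 39.1 CPM in untreated USP18-/- libraries. They were higher by 1.20 ± 0.13 and 1.29 ± 0.13 untreated and by 0.84 ± 0.13 and 0.88 ± 0.13 under IFN, the latter below the threshold. These 3 genes were chosen after the number of their members was seen.

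Where an island and the promoter window of the same gene did not overlap, the pair could be compared. There were 1479 such pairs. Of 146 islands higher in untreated USP18-/- cells, 42 had a promoter also called higher and 3 a promoter called lower, and 101 had a promoter that was not called, where 8.79% of all paired promoters were called higher. Of 77 islands that were lower, 20 had a lower promoter and 0 a higher one, against 4.53%. Under IFN 76 of 204 higher islands had a higher promoter and 3 a lower one, against 15.6% of all paired promoters called higher. Of 105 lower islands 20 had a lower promoter and 6 a higher one, against 6.49% called lower. With IFN in USP18-/- cells 7 of 45 higher islands had a higher promoter and 0 a lower one, against 2.16%. Most islands called in these comparisons thus lay by a promoter that did not pass the threshold.

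Of 66 interferon-stimulated genes listed, only 6 were the nearest gene of a member, with 7 tested members. In untreated USP18-/- cells 0 were called in either direction, with 4 positive and 0 negative at an unadjusted p under 0.05, and under IFN 4 were higher than in WT cells and 0 lower. With IFN 1 rose in WT and 3 in USP18-/- cells, and 0 fell. Over all tested regions the shares called higher were 11.3% for USP18 loss under IFN, 0.342% with IFN in WT and 7.12% with IFN in USP18-/- cells. IRF1, a transcription factor induced by interferons, had an intergenic island 6163 bp upstream (chr5:132496436-132497436) with 17.7 and 17.7 CPM in the 2 untreated WT libraries, 27.2 and 23.7 in WT with IFN, 20.4 and 22.9 in untreated USP18-/- cells and 83.6 and 81.2 in USP18-/- cells with IFN. The rise was 0.52 ± 0.12 in WT (adjusted p = 0.0133, below the fold threshold) and 1.93 ± 0.11 in USP18-/- cells (adjusted p = 6.74e-28), and the effects differed by 1.41 ± 0.17 (adjusted p = 1.31e-10). At the IRF1 promoter window the change with IFN was 0.23 ± 0.13 in WT and 1.03 ± 0.11 in USP18-/- cells.

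SOCS1, a feedback inhibitor of JAK kinases, had an island in its only intron (chr16:11255345-11256345) with 12 and 11.6 CPM in the 2 untreated WT libraries, 17.1 and 14.3 in WT with IFN, 11.2 and 22.8 in untreated USP18-/- cells and 20.9 and 51.2 in USP18-/- cells with IFN. The replicates of both USP18-/- groups differed by more than 2-fold, and the calls with IFN in USP18-/- cells (1.09 ± 0.18) and for USP18 loss under IFN (1.19 ± 0.18) were lost without USP18-/- IFN replicate 2, with log2 values of 0.29 and 0.38. The first was lost as well without USP18-/- untreated replicate 1 (0.63). ADAR, an RNA editing enzyme gene, had 28.3 and 22.1 CPM in the 2 untreated WT libraries, 26.6 and 27.9 in WT with IFN, 34.5 and 36 in untreated USP18-/- cells and 37.1 and 37.5 in USP18-/- cells with IFN, and none of its changes was called. DHX58, an RNA helicase of the RIG-I family, had a member with a mean of 1.14 CPM in WT and 2.52 CPM in USP18-/- cells, both with IFN, that was called higher in USP18-/- cells under IFN, by 1.13 on the log2 scale.

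NF-kB and inflammatory genes had 9 tested members. With USP18 loss 3 were higher untreated and 5 under IFN, and 0 were lower, where 8.36% and 13.6% of all tested members were called higher. The median log2 fold changes with USP18 loss were 0.94 untreated and 1.04 under IFN. All tested members were at 0.32 and 0.35, and all tested regions at -0.02 and 0.00. With IFN 0 were called in either genotype. At an unadjusted p under 0.05, 6 of the 9 had a positive IFN effect in USP18-/- cells and none in WT cells, with medians of 0.27 and 0.05. RELB, a subunit of NF-kB, had an island in intron 1 (chr19:45001511-45002511) with 12.4 and 10.9 CPM in the 2 untreated WT libraries, 11.2 and 11 in WT with IFN, 36 and 29.7 in untreated USP18-/- cells and 54.5 and 41.5 in USP18-/- cells with IFN. It was higher by 1.50 ± 0.14 untreated (adjusted p = 1.02e-15) and by 2.11 ± 0.14 under IFN (adjusted p = 1.8e-24), and 12.7% of its window recurs elsewhere.

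NFKBIA, the inhibitor of NF-kB, had an island in intron 1 with 35.9 and 31.1 CPM in the 2 untreated WT libraries, 34.5 and 34.6 in WT with IFN, 61.2 and 71.1 in untreated USP18-/- cells and 78.2 and 81 in USP18-/- cells with IFN. It was higher by 0.98 ± 0.10 untreated, just below the threshold, and by 1.20 ± 0.10 under IFN, which the GC offsets reduced to 0.86. JUNB, a subunit of AP-1, had 50.1 and 39.8 CPM in the 2 untreated WT libraries, 54.9 and 47.5 in WT with IFN, 73.5 and 84 in untreated USP18-/- cells and 88.5 and 110 in USP18-/- cells with IFN, and ZFP36, which destabilises inflammatory mRNAs, had 42.5 and 43.4 CPM in the 2 untreated WT libraries, 49.8 and 40.1 in WT with IFN, 65.9 and 64.8 in untreated USP18-/- cells and 80.6 and 76.2 in USP18-/- cells with IFN at its most acetylated island. All USP18-/- libraries were above all WT libraries at both, and neither passed the fold threshold. Of the 1181 tested members with the highest mean levels, 86.5% had a positive fold change with USP18 loss untreated and 84.4% under IFN. Other members called in this list lay near ICAM1, SOD2 and, at -2897, ZFP36.

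Of 24 tested members near myeloid and leukemia transcription factors, 2 were higher and 0 lower untreated, and 4 higher and 1 lower under IFN. The shares called higher, 8.33% and 16.7%, were near the 8.36% and 13.6% of all tested members. RUNX1, a master regulator of blood formation, had an island in intron 3 with 88 and 76.7 CPM in the 2 untreated WT libraries, 84.3 and 79.7 in WT with IFN, 104 and 134 in untreated USP18-/- cells and 119 and 134 in USP18-/- cells with IFN. It was 0.53 ± 0.09 higher untreated on the log2 scale and not called. KLF2 had an island 40986 bp upstream with 35.6 and 36.2 CPM in the 2 untreated WT libraries, 36.9 and 35 in WT with IFN, 68.9 and 64.5 in untreated USP18-/- cells and 78.7 and 69.9 in USP18-/- cells with IFN. Its difference of 1.05 ± 0.10 under IFN was called and dropped to 0.91 without USP18-/- IFN replicate 1 and to 0.77 when libraries were scaled by the sum of counts. PBX3, a partner of HOX proteins, had 41.1 and 41.5 CPM in the 2 untreated WT libraries, 35.6 and 39.5 in WT with IFN, 72.2 and 69.2 in untreated USP18-/- cells and 63.6 and 60.1 in USP18-/- cells with IFN, and EGR1, an immediate early gene, 32.3 and 32.8 CPM in the 2 untreated WT libraries, 34.3 and 35.2 in WT with IFN, 44.8 and 52.5 in untreated USP18-/- cells and 68.9 and 59 in USP18-/- cells with IFN. At all 4 the USP18-/- libraries were above the WT libraries without overlap, by less than 2-fold for RUNX1, PBX3 and EGR1. This direction was common at high levels: of the 1181 tested members with the highest mean levels, 86.5% had a positive fold change in untreated cells.

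Of 35 tested members near enzymes and readers of histone acetylation and DNA methylation, 0 were called untreated, and one near KAT2B, a histone acetyltransferase, was called higher under IFN. Their untreated median was 0.37, and 19 had a positive and 3 a negative fold change at an unadjusted p under 0.05. KDM4A, a histone demethylase, had 76.2 and 72.9 CPM in the 2 untreated WT libraries, 76 and 78.1 in WT with IFN, 135 and 145 in untreated USP18-/- cells and 149 and 153 in USP18-/- cells with IFN, a difference of 0.91 ± 0.08 untreated and 0.97 ± 0.08 under IFN. NCOA2, a nuclear receptor coactivator, had 57.6 and 52.2 CPM in the 2 untreated WT libraries, 53 and 49.8 in WT with IFN, 65.1 and 88.1 in untreated USP18-/- cells and 89.5 and 113 in USP18-/- cells with IFN. CXXC5, which binds unmethylated CpG, went down with IFN in USP18-/- cells without passing the fold threshold, with 65.6 and 72.1 CPM in the 2 untreated WT libraries, 73.3 and 69.4 in WT with IFN, 85 and 86.6 in untreated USP18-/- cells and 54.2 and 58.7 in USP18-/- cells with IFN. DNMT1, the maintenance DNA methyltransferase, had 61.5 and 59.8 CPM in the 2 untreated WT libraries, 63.1 and 60.2 in WT with IFN, 63.9 and 65.3 in untreated USP18-/- cells and 47.6 and 55.4 in USP18-/- cells with IFN.

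Imprinted genes had 13 tested members with 3 higher and 2 lower untreated, 2 higher and 0 lower under IFN, and 1 called in each direction with IFN in USP18-/- cells. Of all tested members, 8.36% were higher and 4.19% lower untreated and 13.6% and 5.76% under IFN. HERC3, a ubiquitin ligase, had 3.57 and 4.21 CPM in the 2 untreated WT libraries, 6.45 and 3.84 in WT with IFN, 7.83 and 10.3 in untreated USP18-/- cells and 7.35 and 10.3 in USP18-/- cells with IFN, higher by 1.21 ± 0.23 untreated, or 0.95 with the GC offsets. WRB, a receptor for tail-anchored membrane proteins, had 3.16 and 3.76 CPM in the 2 untreated WT libraries, 3.91 and 4.55 in WT with IFN, 6.2 and 9.87 in untreated USP18-/- cells and 3.85 and 3.89 in USP18-/- cells with IFN. It was higher by 1.20 ± 0.24 in untreated USP18-/- cells and fell with IFN in them by 1.04 ± 0.23, calls that were lost without USP18-/- untreated replicate 2 (0.83 and -0.68). TRAPPC9 had its most acetylated island 6251 bp upstream, with 10.5 and 13.1 CPM in the 2 untreated WT libraries, 12.3 and 14.6 in WT with IFN, 17.1 and 20.2 in untreated USP18-/- cells and 23.9 and 25.3 in USP18-/- cells with IFN, and 2 weak windows about 108 kb into the gene that were lower untreated by 1.05 and 1.43. PLAGL1, a zinc finger gene, had 7.95 and 8.86 CPM in the 2 untreated WT libraries, 8.98 and 10.1 in WT with IFN, 5.42 and 5.98 in untreated USP18-/- cells and 9.01 and 6.29 in USP18-/- cells with IFN and was not called.

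Developmental regulators were listed by symbol, from the homeobox, SOX, FOX, T-box and GATA families, which also admits a few unrelated symbols such as GATAD2A. Most of their members were weakly acetylated, with a median of 2.59 CPM over 92 tested of 123 members, against 6.23 CPM over all tested members. With USP18 loss 9 were higher (9.78%) and 1 lower untreated, and 11 higher (12.0%) and 3 lower under IFN, near the 8.36% and 13.6% of all tested members called higher. With IFN in USP18-/- cells 1 rose and 2 fell, where 2.96% and 1.46% of all tested members did. The 4 genes with the highest single members were FOXD4, FOXP1, OTX1 and NKX2-4. FOXP1, active in myeloid cells, had 89.3 and 86.9 CPM in the 2 untreated WT libraries, 86.1 and 79.6 in WT with IFN, 113 and 130 in untreated USP18-/- cells and 126 and 145 in USP18-/- cells with IFN. OTX1 had an island 8240 bp downstream with 62.6 and 65 CPM in the 2 untreated WT libraries, 59 and 61.4 in WT with IFN, 105 and 120 in untreated USP18-/- cells and 102 and 113 in USP18-/- cells with IFN, and NKX2-4 one in its only intron with 49.8 and 45.4 CPM in the 2 untreated WT libraries, 51.2 and 44 in WT with IFN, 76.9 and 87.3 in untreated USP18-/- cells and 95.3 and 92.6 in USP18-/- cells with IFN. OTX1 and NKX2-4 were higher in every USP18-/- than in every WT library, by 0.82 ± 0.09 and 0.79 ± 0.09 untreated, and were not called. Among the 1181 tested members with the highest mean levels, 86.5% had a positive fold change untreated, with a median of 0.44. Called members of this list lay near FOXD1, GATA6 and SOX17, among others.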

How the data were processed

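H3K27ac ChIP-seq was measured in 8 libraries of THP-1 cells, 2 per group, and the 8 input libraries were not analysed here. The authors mapped the reads to hg38 with Bowtie2, made tag directories with HOMER, and deposited expected counts, that is raw tags per 1000 bp window in steps of 0.5 at merged ATAC-seq peaks, not normalized. Tool versions are not given in the sources used here.

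The counts were rounded to whole numbers, and the 123276 regions that reached 10 counts in 2 or more libraries were fitted with edgeR 4.0.16 (R 4.3.3; TMM, quasi-likelihood test, 1 mean per group), with Benjamini-Hochberg adjustment over all of them. DESeq2 1.42.0 was an alternative. The common biological coefficient of variation was 0.0737, and the smallest library held 9082433 rounded counts. Transcript starts came from GENCODE 44, and sequences from hg38. Exact permutation tests used scipy 1.17.1.

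The members and gene lists were chosen with earlier results of these data known. Named members were, for each comparison, up to 3 largest rises and 3 largest falls among called members whose libraries did not overlap and whose higher group had a mean of at least 30 counts, 1 per stretch, together with the 5 highest mean levels and up to 4 of the highest per gene list, 1 per gene; for the difference of the IFN effects a call was enough. The replicate numbers did not pair the libraries. Correlations of same-numbered deviations were between 0.0012 and 0.0463 over all tested regions and between -0.0402 and 0.0769 over the members. Alternatives were other scalings, GC offsets, filters, DESeq2, a replicate block, and leaving out each library. Some members near genes of the lists are not reported here.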

Additional observations from a re-analysis of the deposited data

Results flagged for a closer look

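An interaction term tested whether the IFN effect differed between USP18-/- and WT cells, and every result here was past the threshold in that test. It gave 87 members with a higher and 40 with a lower effect in USP18-/- cells. Islands with a higher effect, with the difference of the log2 fold changes, were LINC01336 -1018 (2.64), ZFPM2 +315 (2.29), KCNK9 -2880 (2.07), IL15RA +559 (1.96), ARHGEF19 -4852 (1.87), IRF1 -6163 (1.41), FBXO6 +561 (1.23), B4GALNT4 -13514 (1.21) and PARP14 +379 (1.18). Islands with a lower effect were MIR183 -5338 (-2.19), RGS12 +3129 (-1.75), CLGN +633 (-1.58), BRI3BP +618 (-1.53) and WRB +981 (-1.32). The difference at ARHGEF19 lost its call without WT untreated replicate 2 (1.84) or USP18-/- untreated replicate 1 (1.57), and that at WRB without USP18-/- untreated replicate 2 (-0.96). FBXO6 and B4GALNT4 were picked after their values were seen. The counts depend on the scaling, with 52 higher and 69 lower by the sum of counts.

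No library stood apart from the other 3 of its genotype in the share of tags held by members. The largest gap was 0.803 of the range, for an untreated USP18-/- library, below the critical value of Dixon's test for 4 samples.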

How the results depend on the processing

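The call in either direction depended most on scaling and GC content. The gap between members and other regions depended most on the GC offsets and the loess offsets, and the cause was not tested. With offsets by GC share USP18 loss gave 183 higher and 340 lower members untreated (median log2 fold change 0.0438) and 365 and 410 under IFN (0.0906). Scaling by the sum of counts gave a median of 0.18 untreated, 327 and 423 under IFN (0.0726), 156 lower with IFN in USP18-/- cells (-0.12), and 52 and 69 for the difference of the IFN effects (-0.0929). The tag totals in the headers gave medians of 0.27 and 0.23 for USP18 loss, 114 lower with IFN in USP18-/- cells (-0.0569) and -0.0260 for the difference. Loess offsets gave 0.22 and 0.26 for USP18 loss.

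With no fold threshold the numbers higher were 20 with IFN in WT, 1613 and 1747 for USP18 loss untreated and under IFN, 653 with IFN in USP18-/- cells and 322 for the difference, and those lower were 417, 520, 482 and 152 in the last 4. With a mean of at least 30 counts, where fewer regions are tested, 0 fell in WT, USP18 loss gave 199 higher (0.27) and 352 higher (0.28), and 91 rose with IFN in USP18-/- cells. In regions over 3000 bp from a TSS alone the numbers were 3 higher in WT, 260 and 86 (0.44), 351 and 120 (0.44), 61 and 33, and 35 and 20. The 4 WT libraries alone gave 4 lower with IFN. DESeq2 called 0 lower in WT, 42 lower with IFN in USP18-/- cells and 18 lower for the difference.

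Leaving out 1 library at a time gave 5 to 8 higher and 0 to 4 lower with IFN in WT (median -0.0772 to 0.0358), 329 to 425 and 175 to 209 for USP18 loss untreated (0.29 to 0.36), 557 to 706 and 224 to 286 under IFN (0.29 to 0.41), 121 to 150 and 68 to 116 with IFN in USP18-/- cells (-0.0296 to 0.0570), and 61 to 90 and 24 to 54 for the difference (-0.0211 to 0.103). The log2 share of tags differed between genotypes by 0.397 to 0.442. Between IFN and untreated it was -0.0641 to 0.106, negative without either untreated WT library or either USP18-/- library with IFN, where leaving out a library unbalances the genotypes. Taken within genotypes it was -0.022 to 0.047, an alternative chosen after seeing the data. In members over 3000 bp from a TSS it was -0.00778.

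The replicate block gave 7 and 2, 392 and 199, 639 and 271, 141 and 68, and 87 and 39 in the 5 comparisons and changed no call of a named member. The whole window in place of its central 200 bases raised all 9 motif shares, which could not fall because the window contains those bases. The GC box was then in 75.9% of members and 68.6% of promoter-TSS regions, the reverse of the order in the central 200 bases. Depth limits calls at low levels, where 544 members were not tested.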
